A study of Sus scrofa with 33 samples.

Results

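Gene expression in the right ventricular free wall of 11 pigs was compared between a biopsy taken after 120 min of pulmonary banding and the baseline biopsy of the same animals. The comparison used every array labelled with either biopsy, 22 of the 33 arrays of the series, with 11 arrays at 120 min of banding and 11 at baseline. Banding narrows the pulmonary artery, so that the right ventricle has to eject against a higher pressure, and it was used here to bring on right ventricular failure. At 120 min of banding 6 pigs belonged to the arm that was later given a modified Glenn shunt and 5 to the control arm. At baseline the same 6 and 5 pigs were sampled before banding. The design text places the randomisation after right ventricular failure, so no pig carried a shunt at either biopsy, and neither the strain, the age nor the sex of the animals is given. The other 11 arrays, from the biopsy a further 60 min later, entered the fit for the estimate of the spread only. No unbanded pigs were biopsied at the same times, so that banding cannot be told apart from anaesthesia, surgery, the earlier biopsy and elapsed time.

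An abrupt rise in pressure stretches the ventricular wall, and cardiac muscle, vessel wall and resident immune cells are known to answer such loads with layers of transcription. Immediate early genes come first, among them transcription factors and the feedback inhibitors that later switch the signal off. Cytokines, chaperones and matrix-associated proteins follow, and the natriuretic peptides, which are hormones released from stretched muscle, are the usual markers of the load. The biopsy is a piece of whole tissue, so a change in the number of cells of a type and a change in RNA per cell cannot be told apart.

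All levels are log2 RMA values, on which a difference of 1 is a 2-fold change in hybridisation signal, and levels of different probe sets cannot be set against each other. A gene or probe set was called when its adjusted p in limma, with each pig as its own block, was under 0.05. Pairwise correlations between arrays lay between 0.963 and 0.994. Markers of ventricular muscle were high in every biopsy, the mean level of their 12 measured genes being 13.72 to 13.94 at 120 min and 13.84 to 13.996 at baseline. RNA quality was read from the 3′ minus 5′ signal of GAPDH, which was 0.83 ± 0.17 at 120 min and 0.81 ± 0.15 at baseline (SD, n = 11 pigs; exact sign-flip test, two-sided, p = 0.657). These means cover opposite shifts in control pigs. Control pigs 1, 3 and 5 had 1.00, 1.05 and 1.08 at 120 min, against 0.75, 0.73 and 0.78 at baseline. Control pigs 2 and 4 had 0.84 and 0.84, against 0.96 and 1.07. Shunt pigs ran from 0.61 to 0.88 at 120 min and from 0.63 to 0.98 at baseline. The part of RNA quality in differences between pigs was not tested. By their spiked-in control RNAs the arrays fell into 3 sets, holding shunt pigs 1 to 4, shunt pigs 5 and 6, and control pigs 1 to 5. Each change is measured within a pig and so within a set, but between the arms an effect of the set cannot be told apart from one of the arm.

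The baseline arrays of shunt pigs 2 and 4 stood apart. This was read over the 30 largest rises at 120 min among genes called and higher in every pig, listed below by role. The mean baseline level of these genes was 8.12 in shunt pig 2 and 8.79 in shunt pig 4. In the other 9 pigs it was 7.03 to 7.66. At 120 min the same mean was 10.1 and 10.6 in those pigs, within the 8.67 to 10.8 of the others. Shunt pig 4 had the highest baseline array for 22 of the 30 genes, and pigs 2 and 4 together were the 2 highest for 17. Without all arrays of these pigs 6068 probe sets were called, 2319 higher and 3749 lower, against 6964 with them.

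Over all probe sets 29.0% were called, 11.6% higher and 17.4% lower (2794 and 4170 of 23999). Among the 6765 genes with a single symbol, each represented by its probe set with the highest mean, 2291 (33.9%) were called, 887 higher (13.1%) and 1404 lower (20.8%). Large changes ran the other way, with 97 called genes at least 2-fold higher (1.43%) and 9 at least 2-fold lower (0.133%). In 346 of the genes called higher (5.11% of all genes) and 453 of those called lower (6.70%), every pig changed in the same direction. In 90 genes (1.33%) the 11 arrays at 120 min did not overlap the 11 baseline arrays. The median change over all genes was -0.02. The genes described next were picked by the size of this same change among genes called and moving alike in every pig. Their values are therefore a description. Genes with a pig moving the other way, such as ATF3 (mean change 3.45) and NPPB (2.16), are left out of these ranks and described further below.

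PTX3, the gene of the pattern recognition protein pentraxin 3, rose most. It had levels of 8.66, 10.22 and 12.04 at 120 min (lowest, median and highest of 11 pigs), against 4.38, 5.98 and 8.77 at baseline. All 6 shunt pigs lay above all 5 control pigs at 120 min, and the groups overlapped only through the baseline array of shunt pig 4 and the 120 min array of control pig 5. The fitted change was 4.30 ± 0.33 (SE, n = 11 pigs), and 4.56 without shunt pigs 2 and 4. CCL2, the chemokine that draws monocytes, had 10.25, 12.24 and 12.82 at 120 min, against 7.29, 8.34 and 11.04 at baseline, with shunt pigs 2 and 4 highest at baseline and rising least (1.91 and 1.78). IL6, the cytokine that drives the acute-phase response, had 5.22, 8.13 and 9.54 at 120 min, against 4.06, 4.32 and 7.14 at baseline. Its rise spanned 1.09 in control pig 5 to 5.06 in shunt pig 3, and the groups overlapped through the baseline arrays of shunt pigs 4 and 2 alone (7.14 and 5.74), the other 9 lying at 4.06 to 5.04.

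Smaller rises were those of CXCL8, the neutrophil chemokine, and SELE and ICAM1, adhesion molecules with which endothelium holds leukocytes. CXCL8 averaged 5.40 ± 1.31 at 120 min and 3.46 ± 0.60 at baseline (SD, n = 11 pigs), and its rise of 1.94 ± 0.35 (SE, adjusted p = 0.000149 in limma) ran from 0.06 to 3.46 over the pigs. Its baseline signal was near the bottom of the array's range. SELE averaged 6.21 ± 1.28 and 4.32 ± 0.81, with a change of 1.89 ± 0.34 that ran from 0.07 to 4.22. The control arm's change in the joint fit did not pass for either (CXCL8 1.23 ± 0.52, adjusted p = 0.169; SELE 0.94 ± 0.51, adjusted p = 0.301 in limma). In a fit to the control pigs only, SELE passed (adjusted p = 0.0485) and CXCL8 did not (adjusted p = 0.0650), and a test of the difference between the arms passed for no gene. ICAM1 averaged 9.04 ± 0.69 and 7.27 ± 0.54 and was 3.40-fold higher. STX11, a syntaxin of immune cells, was 3.88-fold higher.

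The stress-inducible chaperone HSPA6, of the HSP70 family, had levels of 6.33, 10.09 and 13.11 at 120 min, against 4.83, 5.61 and 7.35 at baseline. The pigs fell apart at 120 min, with all 6 shunt pigs between 10.09 and 13.11 and the 5 control pigs between 6.33 and 9.73. Control pigs 3, 5 and 2 changed by 0.77, 1.11 and 1.65, and control pigs 4 and 1 by 3.98 and 4.11. The mean change was 4.03 ± 0.55 over all pigs, 5.45 ± 0.74 in the shunt arm, against 2.32 ± 0.82 in the control arm. The control arm's change did not pass in the joint fit (adjusted p = 0.0900 in limma) and passed in a fit to the control pigs only (adjusted p = 0.0236). DNAJB1, an HSP40 co-chaperone that works with HSP70, was 3.46-fold higher, with changes from 0.43 to 3.85. Its control arm change of 1.10 ± 0.53 did not pass in the joint fit (adjusted p = 0.242 in limma) and passed in a fit to the control pigs only (adjusted p = 0.00682). Fits to shunt pigs 1 to 4 only and to shunt pigs 5 and 6 only did not pass (adjusted p = 0.0551 and 0.219 in limma). The metallothionein MT-2B, a metal-binding protein induced by stress and glucocorticoids, had 7.59, 9.81 and 10.57 at 120 min, against 6.19, 6.94 and 8.06 at baseline. In 10 pigs it changed by 2.38 to 3.29, and in control pig 5 by 0.68.

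**Figure D1:**
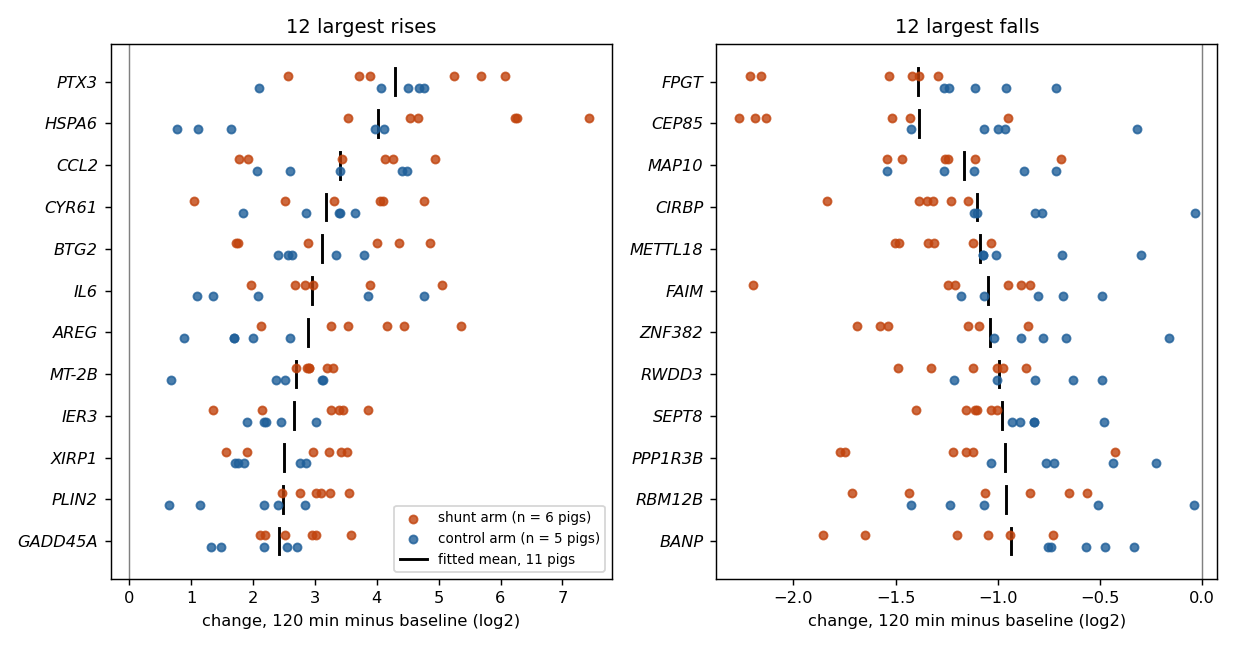
Change from baseline to 120 min of banding (log2, horizontal axis) for the 12 genes with the largest rises and the 12 with the largest falls, 1 point per pig, with shunt pigs in orange above control pigs in blue and the fitted mean of 11 pigs as a black line. The genes were chosen among those called and moving alike in every pig, so by that choice every point lies on its mean's side of 0. The spread between pigs is widest for HSPA6, from 0.77 to 7.43.

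Growth and cell cycle regulators formed another group. BTG2, an antiproliferative gene whose product also speeds mRNA deadenylation, had 11.39, 12.68 and 13.52 at 120 min, against 7.94, 9.0 and 11.24 at baseline, and the groups did not overlap. Its change was 3.12 ± 0.29, or 8.69-fold, and 3.43 without shunt pigs 2 and 4, whose own changes of 1.75 and 1.72 were the smallest. GADD45A, induced by DNA damage and growth arrest, averaged 11.95 ± 0.89 at 120 min and 9.53 ± 0.52 at baseline, a change of 2.42 ± 0.21. MYC, a growth-promoting transcription factor, averaged 10.58 ± 0.60 and 8.28 ± 0.63. PLK2, a polo-like kinase, was 3.45-fold higher, the transcriptional regulator IFRD1 4.07-fold, and the imprinted genes PHLDA2 and PEG10 4.96-fold and 3.20-fold. IER3, an immediate early gene that modulates ERK signalling and survival, averaged 12.26 ± 0.51 and 9.60 ± 0.75.

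Of ligands and receptors, AREG, a ligand of the EGF receptor, had levels of 4.73, 7.08 and 8.88 at 120 min, against 3.47, 3.77 and 5.87 at baseline. All 6 shunt pigs exceeded all 5 control pigs at 120 min, while shunt pigs 2 and 4 were the highest at baseline. The changes were 3.82 in the shunt arm, against 1.78 in the control arm, from baseline signals that in 9 pigs were near the bottom of the array's range. TNFRSF12A, the receptor of the cytokine TWEAK, averaged 10.97 ± 0.49 at 120 min and 8.99 ± 0.68 at baseline, a change of 1.98 ± 0.14 with an adjusted p of 1.53e-09 in limma, and its pigs ranged from 1.10 to 2.93.

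Matricellular proteins and proteases of the pericellular space rose as well. CYR61 (current symbol CCN1), a secreted protein induced by stretch, had 11.93, 12.74 and 13.48 at 120 min, against 8.52, 9.35 and 12.12 at baseline. Apart from shunt pig 4, no baseline array exceeded 10.39, and that pig rose by 1.04, the least of all. THBS1, thrombospondin 1, averaged 11.92 ± 0.30 at 120 min and 9.85 ± 0.70 at baseline, the narrower spread being at 120 min. PLAU, the plasminogen activator urokinase, was 3.93-fold higher, and SERPINB2, which inhibits it, 4.30-fold. TIMP1, an inhibitor of matrix metalloproteinases, was 4.05-fold higher, with levels of 8.92 to 11.55 at 120 min that did not overlap the 7.69 to 8.74 at baseline.

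Among the remaining rises were genes of muscle structure and of lipid handling. XIRP1, which binds actin at the intercalated disc, had levels of 11.96 to 13.24 at 120 min and 9.10 to 11.67 at baseline, without overlap. LMCD1, a LIM-domain protein of muscle that promotes calcineurin signalling, had 9.13 to 11.95 at 120 min and 7.52 to 8.92 at baseline, also without overlap. Its change differed over the array sets, at 3.22 for shunt pigs 1 to 4, 2.07 for pigs 5 and 6 of that arm and 0.97 for the control pigs. In fits to 1 set only it passed for shunt pigs 1 to 4 (adjusted p = 0.000913 in limma) but not for pigs 5 and 6 of that arm (adjusted p = 0.114). In the control pigs it passed neither in the joint fit (adjusted p = 0.143 in limma) nor in a fit to those pigs only (adjusted p = 0.0698). PLIN2, which coats lipid droplets, was 5.60-fold higher, ANGPTL4, an inhibitor of lipoprotein lipase, 4.26-fold, and LONRF3, a RING-finger protein, 3.87-fold. In the joint fit all 30 rises were called for the shunt arm, where 28.2% of all genes were (11.7% higher and 16.5% lower), and 25 for the control arm, where 7.02% were (3.44% higher and 3.58% lower). A fit to the control pigs only called 28 of the 30, all but CXCL8 and LMCD1. All 30 stayed called without shunt pigs 2 and 4 (highest adjusted p 0.000374 in limma), and 22 were then larger. Their direction could not change, because the genes were picked for rising in every pig. Those pigs were set apart by high baseline levels over these same genes, which favours larger rises without them.

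The falls were smaller and more even. FPGT, an enzyme of fucose salvage, had levels of 4.23, 4.87 and 5.59 at 120 min, against 5.76, 6.25 and 6.97 at baseline, with no overlap. The 6 shunt pigs changed by -2.21 to -1.29 and the 5 control pigs by -1.26 to -0.71. CEP85, a centrosomal protein, had 7.51, 8.73 and 9.73 at 120 min, against 9.52, 10.05 and 10.51 at baseline, the overlap coming from control pig 4, which fell by 0.32. MAP10, a microtubule-associated protein, had 4.81, 5.22 and 5.46, against 5.88, 6.40 and 6.70. Its groups did not overlap, and the mean change was -1.22 in the shunt arm, against -1.10 in the control arm.

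CIRBP, an RNA-binding protein known to be induced by mild cold, had 7.41, 7.82 and 8.16 at 120 min, against 8.19, 8.97 and 9.24 at baseline. The groups did not overlap, but control pig 5, whose baseline array was the lowest of the 11, changed by -0.04. METTL18, a histidine methyltransferase, had 5.38, 5.67 and 6.21 at 120 min, against 6.46, 6.87 and 7.19 at baseline. FAIM, an inhibitor of Fas-induced apoptosis, had 4.40, 5.65 and 5.98, against 6.25, 6.60 and 6.83, and its lowest array was that of shunt pig 4. Neither overlapped.

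The next falls held several nuclear proteins. ZNF382, ZNF3 and ZNF688, zinc finger proteins, were 2.05-fold, 1.87-fold and 1.78-fold lower, BANP, a DNA-binding protein of unmethylated CpG promoters, 1.91-fold, and NAP1L3, of the nucleosome assembly family, 1.87-fold. The RNA-binding RBM12B was 1.94-fold lower and RSRP1, a protein rich in arginine and serine, 1.83-fold. OGT, the enzyme that attaches O-linked GlcNAc to nuclear and cytoplasmic proteins, averaged 9.72 ± 0.16 at 120 min and 10.54 ± 0.16 at baseline without overlap, a change of -0.82 ± 0.07. Of enzymes and membrane proteins, PPP1R3B, which targets protein phosphatase 1 to glycogen, was 1.95-fold lower, PXYLP1, a phosphatase of glycosaminoglycan synthesis, 1.82-fold, TMEM68 1.85-fold and FAM198B 1.86-fold. SEPT8, a septin, and RWDD3, which enhances sumoylation, did not overlap between the biopsies (7.19 to 8.22 against 8.53 to 9.30, and 6.41 to 7.21 against 7.64 to 8.17). All 20 falls were called for each arm in the joint fit, and also without shunt pigs 2 and 4, when 14 of them were smaller and 6 larger, and in all 20 the mean fall was the larger in the shunt arm. Groups did not overlap in 11 of the 20 falls and 5 of the 30 rises. Over all genes the shares were 0.754% without overlap and lower, and 0.576% without overlap and higher. Both sets were picked from the same values, so these counts are a description.

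Transcripts with the most uneven response included the usual markers of ventricular load. They were ranked by the SD of the change over pigs among genes with a mean level above 7. NPPB, the gene of the natriuretic peptide BNP, had levels of 7.02, 10.75 and 11.98 at 120 min, against 6.25, 7.37 and 11.33 at baseline. Shunt pig 2, control pig 1 and control pig 4 changed by -1.11, -0.53 and -0.08, and the other 8 pigs rose by 1.12 to 4.73. The change was 2.16 ± 0.44 (adjusted p = 0.000578 in limma), and 2.64 without shunt pigs 2 and 4, which had the highest baseline arrays. By array set, NPPB passed for shunt pigs 5 and 6 alone (3.28, adjusted p = 0.0115 in limma) but neither for pigs 1 to 4 of that arm (2.25, adjusted p = 0.0955) nor for the control pigs (1.64, adjusted p = 0.0946).

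NPPA, the gene of the peptide ANP, was the most uneven of all. It had 7.32, 8.59 and 11.48 at 120 min, against 5.97, 9.02 and 11.59 at baseline. It rose by 5.51 in control pig 5 and by 0.64 to 2.15 in 4 other pigs, while 6 pigs changed by -0.37 to -2.86. The mean of 0.04 ± 0.56 (adjusted p = 0.965 in limma) therefore covered changes in both directions. MYL4, the atrial light chain of myosin, changed in the same direction as NPPA in 11 of 11 pigs, though its mean of -0.30 ± 0.28 did not pass either. It changed by 2.36 in control pig 5, -1.75 in control pig 4 and -1.39 in shunt pig 2, where NPPA changed by 5.51, -2.60 and -2.86. Of the 3 measured atrial markers (NPPA, MYL4 and SLN) none was called, although SLN passed without shunt pigs 2 and 4 (0.77, adjusted p = 0.00274 in limma), and their mean level ran from 6.65 to 9.19 at 120 min and from 6.099 to 9.44 at baseline. The part of atrial-type transcripts in the NPPA values was not tested.

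ATF3, a stress-induced transcription factor, had levels of 11.31, 12.11 and 12.87 at 120 min, against 7.06, 8.32 and 12.42 at baseline. The pigs lay closer together at 120 min than at baseline, where shunt pigs 4 and 2 stood at 12.42 and 10.75 and the other 9 at 7.06 to 9.17. The change was 3.45 ± 0.41 over all pigs and 4.08 without those 2. FOS, a subunit of the transcription factor AP-1, had 10.20, 11.95 and 13.25 at 120 min, against 8.57, 10.25 and 12.55 at baseline, with shunt pigs 2 and 4 again highest at baseline. Its change was 1.39 ± 0.43, and it did not pass in any of the 3 array sets alone. CXCL2, a neutrophil chemokine, had a mean change of 0.98 ± 0.32 (adjusted p = 0.0233 in limma), and it did not pass in any of the 3 array sets alone or without the pig block (adjusted p = 0.0592). It changed by 2.66 to 2.95 in shunt pig 3 and control pigs 2 and 4, and by -0.69 to 0.66 in the other 8.

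**Figure D2:**
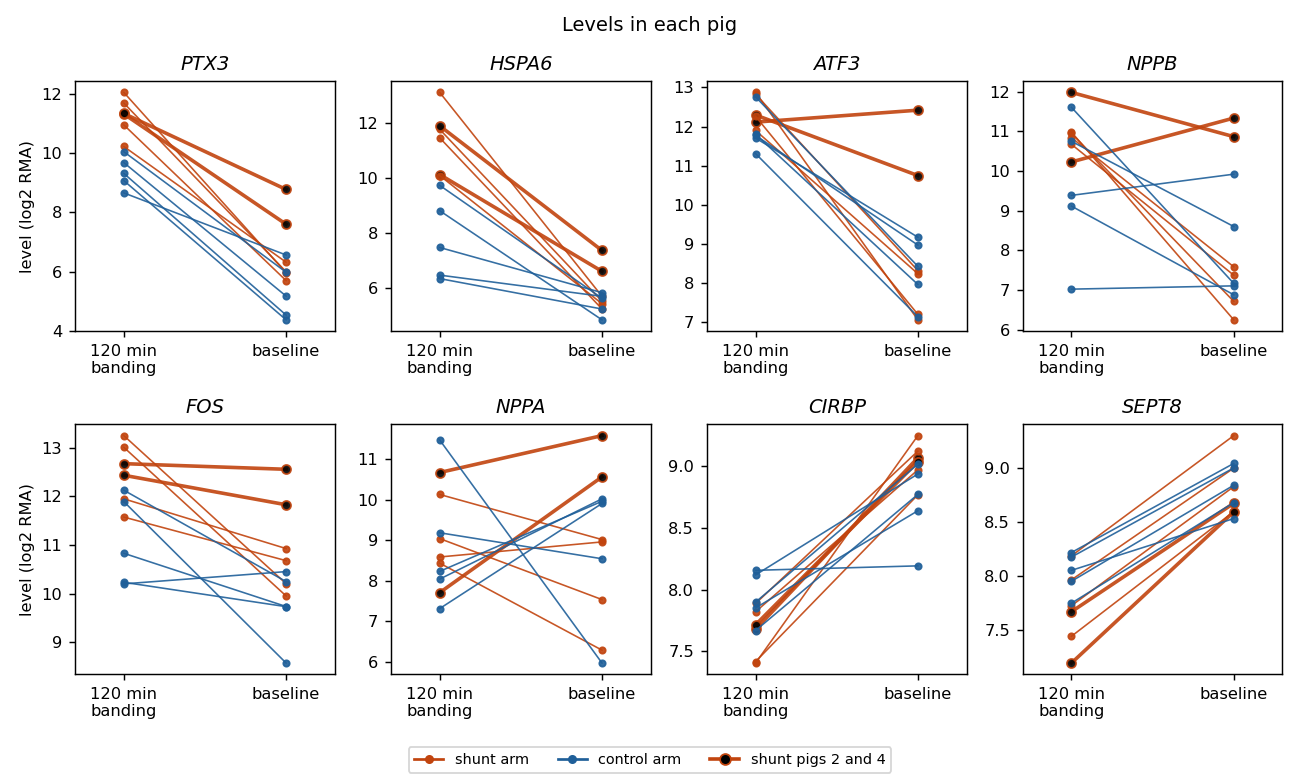
Levels (log2 RMA, vertical axes) of 8 genes in each pig at 120 min of banding (left) and at baseline (right), joined by a line, with shunt pigs in orange and control pigs in blue. Shunt pigs 2 and 4 (thick lines, black points) were the highest at baseline for PTX3, HSPA6, ATF3, NPPB, FOS and NPPA but not for CIRBP or SEPT8.

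The 10 genes with the highest baseline signal lay near the top of the array's range, where signal can saturate, so that a small change in signal does not bound the change in RNA. MYH7, the main ventricular myosin heavy chain, had 14.96, 14.99 and 15.05 at 120 min, against 14.98, 15.00 and 15.02 at baseline, with changes of -0.07 to 0.03. MYL2 and MYL3, the ventricular light chains, and TNNI3 and TNNC1, the troponin subunits, changed by -0.05 to -0.02 on average, each with an SE of 0.03 to 0.04. GAPDH (0.00 ± 0.03), ACTG1 (0.03 ± 0.04) and TPT1 (-0.03 ± 0.04) did not pass. OAZ1, which restrains polyamine synthesis, was less steady, at -0.33 ± 0.15 (adjusted p = 0.101), with changes from -1.49 to 0.51. Of this group UBB, a ubiquitin gene, alone passed (0.14 ± 0.05, adjusted p = 0.0477 in limma). Over all genes, 3303 (48.8%, beside 52.2% of probe sets) had a 95% confidence interval of the change lying inside 1.2-fold in either direction, and 115 of these (1.70% of all genes) were also called.

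Of 27 lists of genes covering pathways and structures, 518 of 895 listed genes were measured, and 112 were called higher and 83 lower. Each list's counts are read against the 13.1% of all genes called higher and the 20.8% called lower. The lists and their members were chosen with earlier results of these data known, and several hold genes named above. A share that departs from those of all genes is therefore a description. Of 8 measured MAP kinase phosphatases and ERK feedback genes, 5 rose (62.5%) and none fell. Besides IER3 these were IER5 and IER2, immediate early regulators (2.18 ± 0.28 and 1.13 ± 0.23), and the phosphatases DUSP1 (0.90 ± 0.17) and DUSP6 (0.32 ± 0.11), which switch MAP kinases off. The list's median change was 0.61, against -0.02 over all genes. Of 16 JAK, STAT and SOCS genes, 8 rose (50%) and 3 fell (18.8%), with a median of 0.17. Without shunt pigs 2 and 4 the count was 7 higher and 3 lower. STAT3, the transcription factor downstream of IL-6, rose by 0.99 ± 0.11, the kinase JAK2 by 0.82 ± 0.13 and the inhibitor SOCS6 by 0.38 ± 0.07, whereas SOCS3, a strong feedback inhibitor of IL-6 signalling, rose by 0.28 ± 0.07 from a mean baseline level of 3.73, near the bottom of the array's range. Of 6 NF-kB subunits and inhibitors, 3 rose (50%) and none fell, led by NFKBIB, an inhibitor of NF-kB (0.65 ± 0.10). Without those pigs 2 rose and none fell. NFKBIA, the inhibitor that NF-kB itself induces, stood at -0.13 ± 0.13 (adjusted p = 0.472 in limma).

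Of 22 growth factors and cytokines of the IL-6 family, 7 rose (31.8%, against 13.1% of all genes) and 1 fell (4.55%, against 20.8%), with a median of 0.10. After AREG came HBEGF, another EGF receptor ligand (1.34 ± 0.18), LIF (0.73 ± 0.18), VEGFA, which drives vessel growth (0.60 ± 0.08), and BDNF (0.57 ± 0.09), while VEGFB fell by 0.26 ± 0.07. Of 22 TGF-beta and BMP genes, 7 rose (31.8%) and 3 fell (13.6%). The BMP targets ID1 (1.07 ± 0.12) and ID3 (0.47 ± 0.10) and the signal transducer SMAD3 (0.63 ± 0.11) rose, and the common partner SMAD4 fell by 0.28 ± 0.06. Of 18 Notch and Wnt genes, 1 rose (5.56%) and 5 fell (27.8%). HEY2, a Notch target of ventricular muscle, fell by 0.90 ± 0.16, and DKK2 and DKK1, Wnt antagonists, by 0.40 ± 0.06 and 0.39 ± 0.06, DKK1 from a mean baseline level of 3.06 that is near the bottom of the range.

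In adrenergic, angiotensin and cAMP signalling 7 of 26 rose (26.9%, against 13.1% of all genes) and 1 fell (3.85%, against 20.8%), with a median of 0.08, and without shunt pigs 2 and 4 5 rose and none fell. RGS2, which curbs signalling through Gq-coupled receptors, rose by 1.17 ± 0.16, the cAMP phosphodiesterases PDE4B and PDE8A by 1.05 ± 0.14 and 0.67 ± 0.08, and CREM, a cAMP-responsive transcription factor, by 0.75 ± 0.14. GRK5, a kinase that desensitises adrenergic receptors, fell by 0.28 ± 0.09. Of 10 eicosanoid genes 2 rose (20%) and 1 fell (10%), and 1 rose without those pigs. PTGS2, the inducible cyclooxygenase, rose by 0.94 ± 0.21 and ALOX5AP by 0.44 ± 0.14, and the prostaglandin receptor PTGER3 fell by 0.49 ± 0.13. Among 8 adenosine and nucleotide genes P2RY12, an ADP receptor, fell by 0.50 ± 0.10 and no other passed.

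Of 20 coagulation and fibrinolysis genes 6 rose (30%, against 13.1% of all genes) and none fell, with a median of 0.10. Besides SERPINB2 and PLAU these were F3, the tissue factor that starts coagulation (1.07 ± 0.17), THBD, thrombomodulin, which restrains it (0.93 ± 0.23), PLAT, the tissue plasminogen activator (0.66 ± 0.17), and TFPI2 (0.57 ± 0.18). Of 18 complement genes CD46, a membrane inhibitor of complement, rose by 0.68 ± 0.13 and CFP, properdin, by 0.15 ± 0.05. The other 16 did not pass, and the share of rises, 11.1%, was near that of all genes. Without shunt pigs 2 and 4 the count was 1 higher and 1 lower. Among 20 antigen presentation genes 1 rose (LGMN, a lysosomal protease, 0.50 ± 0.06) and 1 fell (SLA-DMA, a class II chaperone, -0.26 ± 0.05), and 13 had intervals inside 1.2-fold.

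**Figure D3:**
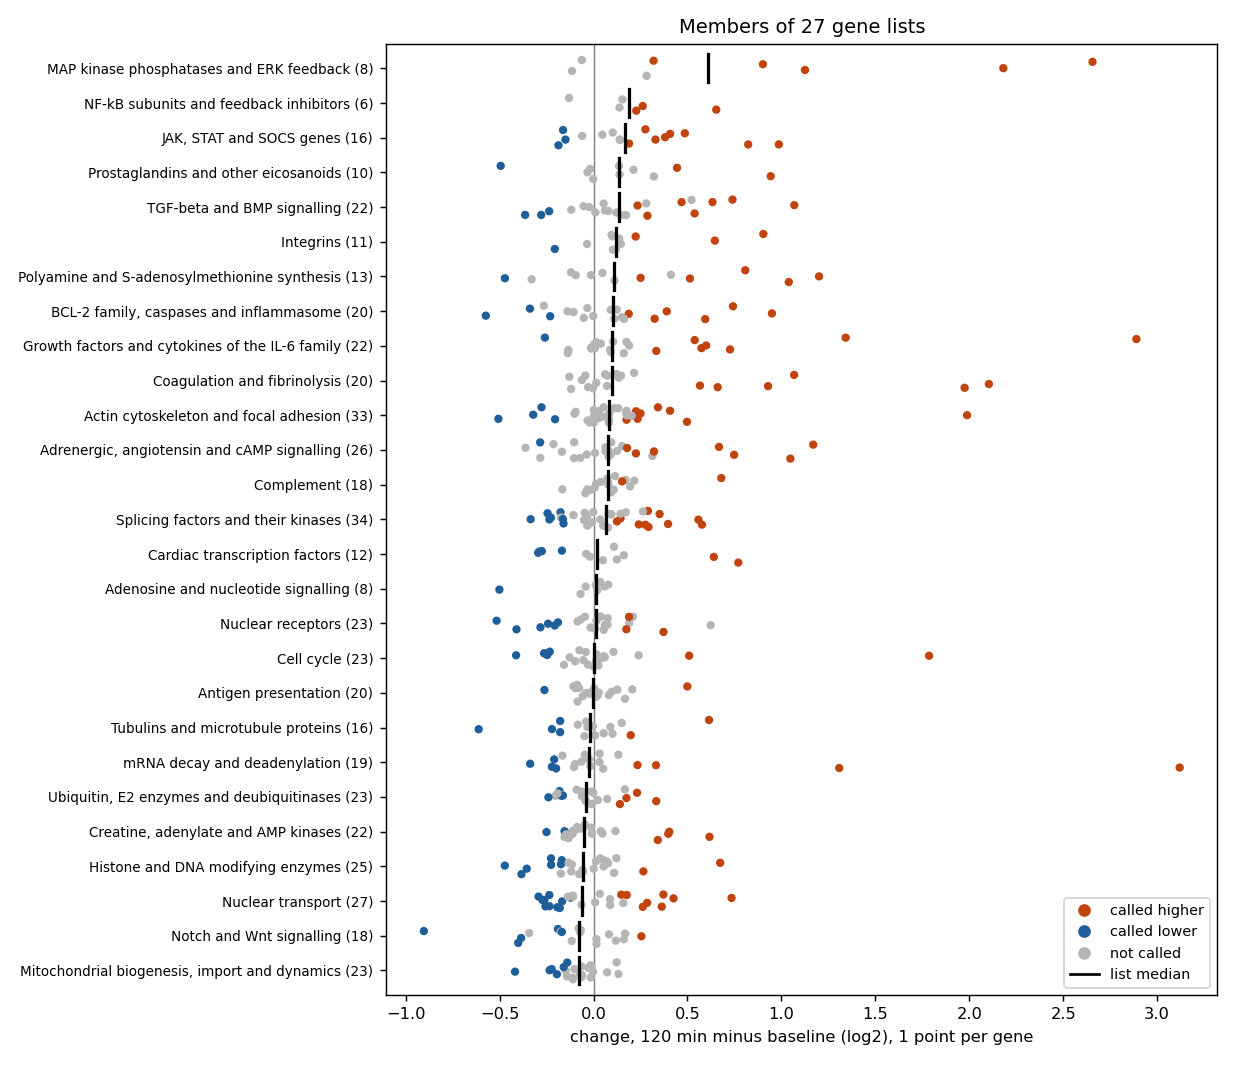
Change from baseline to 120 min (log2, horizontal axis) of every measured gene of the 27 lists, with genes called higher in orange, called lower in blue and not called in grey, the list median as a black line and the number of measured genes in brackets. List medians lay between -0.08 and 0.61, and the MAP kinase phosphatase and ERK feedback list was the highest.

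Of 12 cardiac transcription factors 2 rose (16.7%, against 13.1% of all genes) and 4 fell (33.3%, against 20.8%). TEAD4, an effector of the Hippo pathway, rose by 0.64 ± 0.07 and HOPX by 0.77 ± 0.14, and HAND1, MEF2A and GATA4, factors of the cardiac gene programme, fell by 0.29 ± 0.07, 0.29 ± 0.07 and 0.28 ± 0.09. Of 23 nuclear receptors 3 rose and 6 fell, shares of 13.04% and 26.1% that lie near those of all genes. The falls were led by the orphan receptors NR2F2 (-0.52 ± 0.09) and NR2F6 (-0.41 ± 0.09) and the thyroid hormone receptor THRA (-0.24 ± 0.06). Of 25 histone and DNA modifying enzymes 2 rose (8%) and 7 fell (28%). The DNA methyltransferases moved apart, DNMT1 rising by 0.67 ± 0.07 and DNMT3A falling by 0.38 ± 0.09. The histone methyltransferase SETDB1 fell by 0.47 ± 0.06 and the mitochondrial deacetylase SIRT3 by 0.36 ± 0.08.

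Of 34 splicing factors and their kinases 10 rose (29.4%, against 13.1% of all genes) and 7 fell (20.6%, against 20.8%), with a median of 0.06. The SR proteins SRSF5 (0.58 ± 0.05), SRSF7 (0.56 ± 0.09) and SRSF2 (0.29 ± 0.05) rose, and RBM5, a regulator of splicing, fell by 0.33 ± 0.06. Of 19 mRNA decay genes 4 rose and 4 fell (21.1% each), the share of falls being near that of all genes. After BTG2 the largest rise was that of ZFP36, tristetraprolin, which degrades cytokine mRNAs (1.31 ± 0.24), and the deadenylase subunits PAN2 and CNOT1 fell by 0.34 ± 0.05 and 0.22 ± 0.04. In nuclear transport 8 of 27 rose (29.6%) and 10 fell (37.0%). The importin subunits themselves moved apart, with KPNA2 at 0.73 ± 0.12 and KPNB1 at -0.29 ± 0.05.

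In metabolism, 5 of 13 genes of polyamine and S-adenosylmethionine synthesis rose (38.5%, against 13.1% of all genes) and 1 fell (7.69%, against 20.8%). MAT2A, which makes S-adenosylmethionine, was 2.30-fold higher and its regulatory partner MAT2B fell by 0.47 ± 0.07. ODC1, the first enzyme of polyamine synthesis, rose by 1.04 ± 0.16, its protector AZIN1 by 0.81 ± 0.16 and the spermidine synthase SRM by 0.51 ± 0.10. Of 22 creatine, adenylate and AMP kinase genes 4 rose (18.2%) and 2 fell (9.09%; 1 without shunt pigs 2 and 4). Among the rises were the AMP kinase subunit PRKAG2 (0.62 ± 0.12) and the creatine transporter SLC6A8 (0.40 ± 0.09). Of 23 genes of mitochondrial biogenesis, import and dynamics 6 fell and none rose, with a median of -0.08. The fission factors MFF and DNM1L fell by 0.42 ± 0.09 and 0.22 ± 0.07, and the import proteins TIMM9, TOMM7, TOMM22 and TOMM5 by 0.14 to 0.23. The share of falls, 26.1%, stood beside 20.8% of all genes.

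Of 33 actin and focal adhesion genes 8 rose (24.2%, against 13.1% of all genes) and 4 fell (12.1%, against 20.8%). After LMCD1 came the non-muscle myosin MYH9 (0.50 ± 0.09) and TAGLN2 (0.41 ± 0.09), and the profilin PFN2 fell by 0.51 ± 0.08. Without shunt pigs 2 and 4 this count was 4 and 3. Of 16 tubulin and microtubule genes 2 rose (12.5%) and 4 fell (25%), with the end-binding protein MAPRE1 at 0.61 ± 0.08 and the tubulin cofactor TBCC at -0.61 ± 0.07. Of 11 integrins ITGA5, ITGB3 and ITGB1 rose (0.90 ± 0.10, 0.65 ± 0.16 and 0.22 ± 0.06) and ITGB5 fell by 0.21 ± 0.06 (27.3% and 9.09% of the list). Of 20 BCL-2, caspase and inflammasome genes 6 rose (30%) and 3 fell (15%). The TNF receptors TNFRSF1A (0.74 ± 0.07) and TNFRSF1B (0.95 ± 0.15) and the pore-forming GSDMD (0.59 ± 0.10) rose, and CASP2 and CASP6 fell by 0.57 ± 0.07 and 0.34 ± 0.06. Of 23 cell cycle genes 2 rose (8.70%), PLK2 and PLK3, and 4 fell (17.4%), among them CCNB1 (-0.41 ± 0.11). Of 23 ubiquitin genes 4 rose and 4 fell, 17.4% each and near the shares of all genes, with changes of -0.24 to 0.33.

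Marker genes of cell types were read beside these lists. Of 7 neutrophil and monocyte markers 3 rose (42.9%, against 13.1% of all genes; 2 of 7 without shunt pigs 2 and 4) and none fell. S100A9 rose by 1.38 ± 0.29, TYROBP by 0.42 ± 0.13 and CD14 by 0.23 ± 0.08. The mean level of the 7 ran from 5.54 to 6.81 at 120 min and from 5.43 to 5.80 at baseline. Their mean change was 0.64 ± 0.37 in the shunt arm, against 0.03 ± 0.13 in the control arm (SD over 6 and 5 pigs). The part of these cells in the rise of cytokine and adhesion genes was not tested. Of 4 resident macrophage markers 2 rose (50%; CD163, 0.74 ± 0.10, and MRC1, 0.27 ± 0.08) and none fell. Of 12 ventricular muscle markers 1 fell (PLN, -0.44 ± 0.09) and 10 had intervals inside 1.2-fold, as did 48.8% of all genes. The list holds MYH7, MYL2, MYL3, TNNI3 and TNNC1, which lay near the top of the array's range. There a small change in signal does not bound the change in RNA. Of 9 endothelial markers 1 rose (11.1%) and 2 fell (22.2%), shares near the 13.1% and 20.8% of all genes. Of 6 smooth muscle and pericyte markers 2 rose (33.3%) and 1 fell (16.7%). Of 6 fibroblast markers 1 rose and 1 fell (16.7% each), and 2 rose and none fell without shunt pigs 2 and 4. Of 3 platelet markers 1 rose, of 3 adipocyte markers 1 rose and 1 fell, and of 4 Schwann and neural markers 1 fell. No erythrocyte (2 measured) or mesothelial marker (4 measured) passed, and among lymphocyte markers CD8A alone did (-0.50 ± 0.11).

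The arms, which had been treated alike up to this biopsy, were then compared in their change. In the shunt arm 24.1% of probe sets were called (5773 of 23999; 9.75% higher and 14.3% lower), against 6.73% in the control arm (1616; 2.97% higher and 3.76% lower). A test of the difference itself called 0 probe sets (0.00%) in limma, with a lowest adjusted p of 0.203, and 1655 (6.90%) had an unadjusted p under 0.05, as did 6.74% of genes. The median SE of the difference over genes was 0.14, and differences far larger than that did not pass either (0.64 ± 0.12 for RBM3 and 3.12 ± 1.10 for HSPA6, adjusted p = 0.572 in limma), so that a lack of calls does not show that the arms were alike. Of the 2291 genes called over all pigs, 2280 had the same sign in both arms, and in 1866 (81.4%) the mean change was the larger in the shunt arm. Genes called higher had a median change of 0.44 in the shunt arm, against 0.27 in the control arm, and those called lower -0.32, against -0.22. All these genes were picked by the mean over 11 pigs, 6 of them in the shunt arm, which can favour genes with a large change in that arm. The share with the larger change in the shunt arm was not computed over all genes, so these values are a description.

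Pig by pig, 367 to 1231 probe sets changed at least 2-fold in the shunt arm, against 231 to 498 in the control arm. The means were 743 ± 351 and 373 ± 108 (SD, n = 6 and 5), which did not differ past the threshold in an exact permutation test over 462 splits (two-sided p = 0.0606, adjusted over 4 measures p = 0.121). Counts of probe sets at least 2-fold higher averaged 473 ± 179 and 252 ± 102 (exact permutation p = 0.0498, adjusted p = 0.121), and shunt pigs 2, 5 and 6, with 265, 311 and 370, lay within the 146 to 413 of the control pigs. The other measures were the counts at least 2-fold lower (adjusted p = 0.180) and the SD of the change over probe sets (adjusted p = 0.180), from the same exact test.

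**Figure D4:**
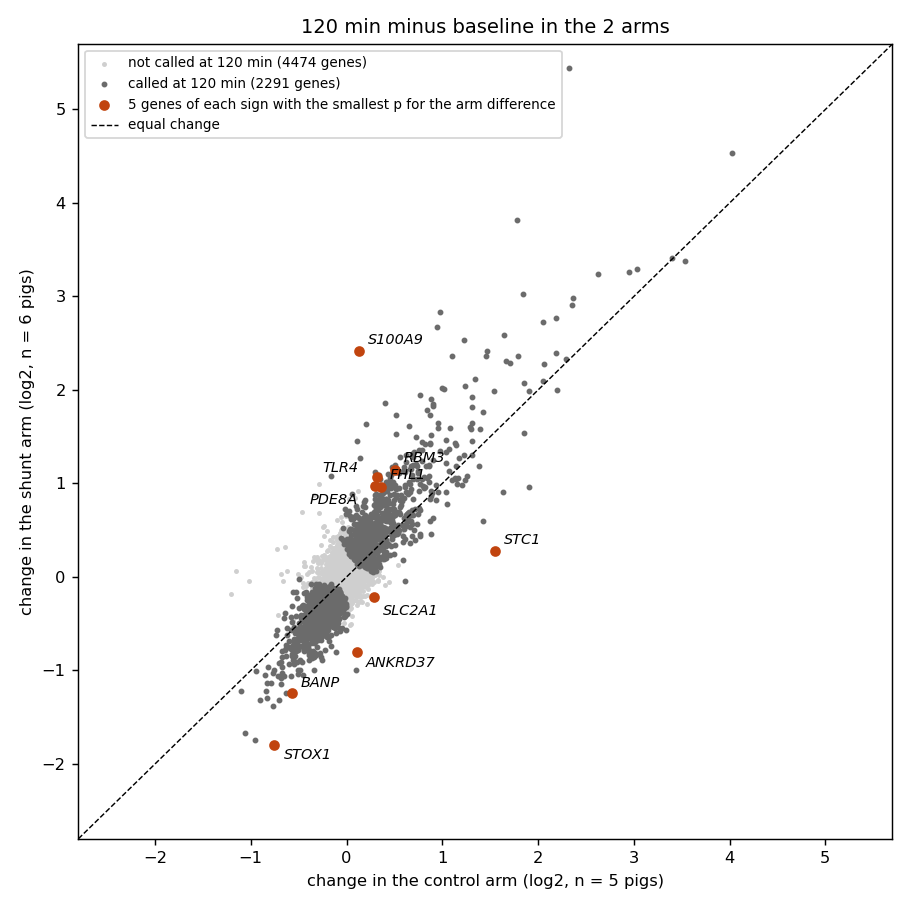
Mean change from baseline to 120 min of each of 6765 genes in the shunt arm (vertical axis, log2, 6 pigs) against the control arm (horizontal axis, log2, 5 pigs), with genes called over all pigs in dark grey and equal change as a dashed line. The 5 genes of each sign with the smallest p for the difference (orange) did not pass after adjustment, and most genes called lie farther from 0 in the shunt arm. The calls rest on the mean over 11 pigs, 6 of them in that arm.

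The 5 genes of each sign with the smallest p for the difference are given as values, since none passed. S100A9 had 5.53 to 9.32 in the shunt arm at 120 min, against 4.31 to 5.21 in the control arm, and 4.38 to 5.93 against 4.13 to 5.54 at baseline. The arms overlapped at baseline and not at 120 min, and the changes differed by 2.28 ± 0.58 (adjusted p = 0.381 in limma). TLR4, the receptor for bacterial lipopolysaccharide, showed the same order, with 6.94 to 7.33 in the shunt arm at 120 min, against 6.08 to 6.62 in the control arm, and a difference of 0.75 ± 0.19.

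For the cold-inducible RNA-binding protein gene RBM3 the arms stood apart at baseline, a gap that was not tested. Its baseline levels were 9.70 to 10.39 in the shunt arm, against 10.40 to 10.62 in the control arm, without overlap, while at 120 min they were 10.81 to 11.41, against 10.87 to 11.21. Its changes were 1.15 ± 0.08 and 0.50 ± 0.09, and they differed by 0.64 ± 0.12 (adjusted p = 0.203 in limma). FHL1, which has LIM domains and binds titin, and PDE8A likewise had a lower mean in the shunt arm at baseline (12.17 against 12.61, and 6.54 against 6.96) and a higher one at 120 min (13.14 against 12.97, and 7.51 against 7.25). Their arms overlapped at both biopsies.

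Of the genes with the opposite sign, STC1, a secreted glycoprotein of calcium handling, changed by -0.02 to 0.78 in the shunt arm, against 1.14 to 2.10 in the control arm. Its baseline mean was 8.76 in the shunt arm, against 7.82 in the control arm, and the 120 min means were 9.04 and 9.37. STOX1, a transcription factor, BANP and ANKRD37 also started higher in the shunt arm and stood at 3.98 against 4.13, 7.27 against 7.39 and 5.93 against 5.94 at 120 min. The glucose transporter SLC2A1 did not overlap between the arms at baseline (6.75 to 7.33 in the shunt arm, against 6.04 to 6.45 in the control arm) and overlapped at 120 min. The 10 genes were picked by these same values, which favours separation of the arms at either biopsy. How often the arms separate over all genes was not computed. The array set moves with the arm in each of the 10, and its part in the differences was not tested.

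**Figure D5:**
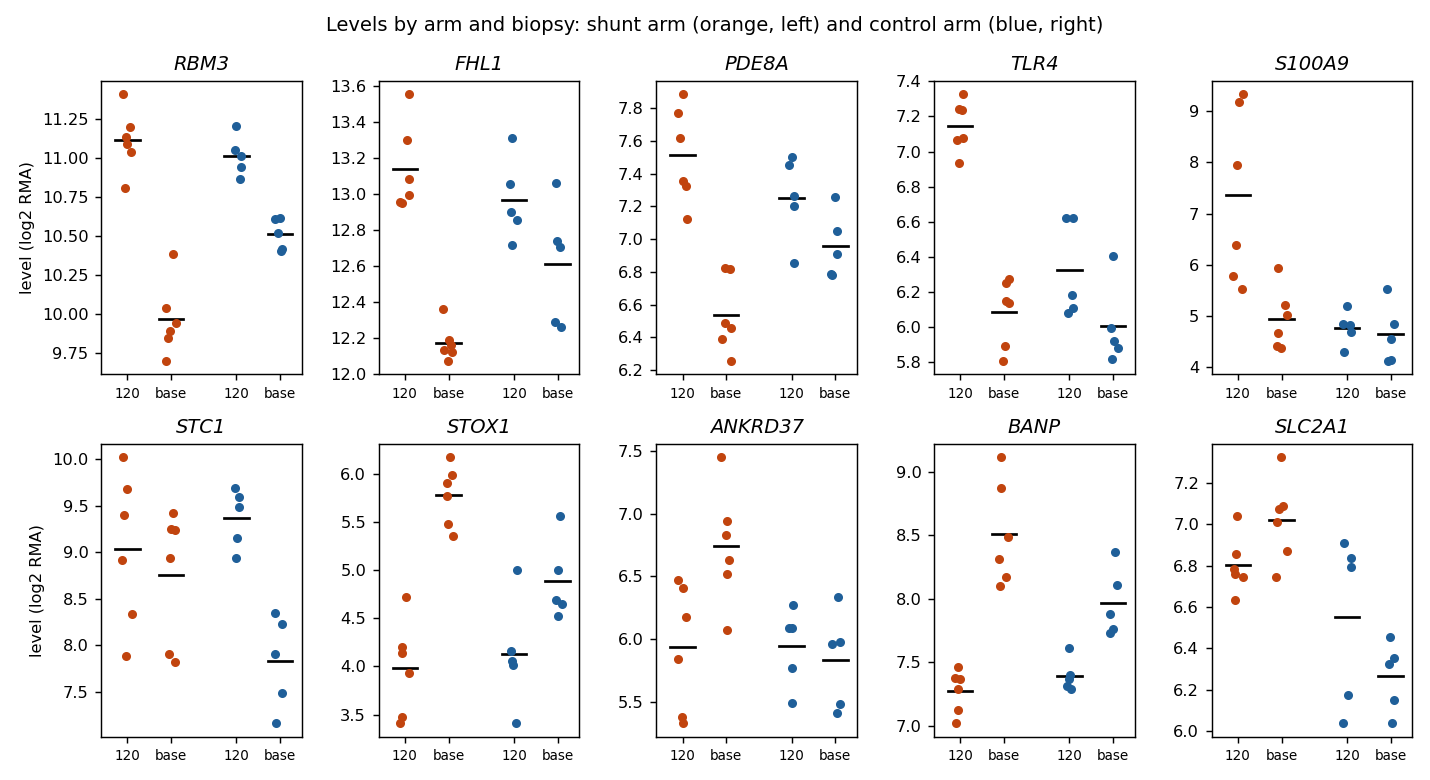
Levels (log2 RMA, vertical axes) of the 5 genes of each sign with the smallest p for the difference between the arms, for shunt pigs (orange) and control pigs (blue) at 120 min and at baseline (base), with the mean as a black line. S100A9 and TLR4 separate the arms at 120 min, RBM3 and SLC2A1 at baseline.

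Probe sets without a gene name, 13732 of those tested, were called in 28.3% of cases, against 29.98% for those with one symbol. The largest rise among them that was shared by all pigs belonged to a probe set with 7.77, 9.41 and 10.68 at 120 min, against 3.66, 4.85 and 7.68 at baseline, a change of 4.16 ± 0.30 (3.93 in the shunt arm, against 4.45 in the control arm). The next had 11.96, 12.75 and 13.29 at 120 min, against 7.95, 8.67 and 11.38 at baseline, a change of 3.62 ± 0.25. Neither overlapped between the biopsies. The largest shared falls were of -1.53 ± 0.29 and -1.51 ± 0.17.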

How the data were processed

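RNA from right ventricular biopsies had been hybridised to Affymetrix Porcine Genome Arrays. The deposited values are log2 RMA summaries, per the submitters' processing notes, and were used without further scaling, floor or filter. Neither the version of RMA nor which arrays were normalised as 1 batch is given in the sources used here. The arrays list 24123 probe sets, of which 124 are controls, and 23999 were tested. Symbols came from the platform annotation (10069 probe sets with 1 symbol, 198 with several, 13732 with none), and 9961 matched RefSeq through their Entrez identifiers. Each gene was represented by the probe set, among those naming it alone, whose mean over all arrays was highest.

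Changes were fitted in R 4.3.3 with limma 3.58.1 on all 33 arrays, with a coefficient for each pig, and for 120 min and the last biopsy in each arm (18 residual degrees of freedom). The change is the mean over 11 pigs. P-values are two-sided, with Benjamini-Hochberg adjustment across all 23999. The labels name the same animal at both biopsies, and deviations of its 2 arrays from the group means correlated at 0.0936 to 0.709 (median 0.356), against a median of -0.0578 between pigs. Measures per pig were compared between the arms by exact permutation, a test added after the data were seen.

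The text names the 30 largest rises and the 20 largest falls of genes called and moving alike in every pig, the 8 most uneven, the 10 highest in level, the 5 smallest p of each sign between the arms, and up to 4 members of a list. Any further member was named after its values were seen. Members and lists were chosen with earlier results of these data known. The fit was run on simulated data with independent normal noise and the same added change in every pig. Such data meet the assumptions of the fit, so they do not test it under the uneven changes seen here. Alternatives covered the block, scaling, filtering, weights, probe set choice, array sets and each pig left out. Arrays give no read depth, and their number limits precision.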

Additional observations from a re-analysis of the deposited data

Results flagged for a closer look

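The changes of 30 genes, the SD of the change and the number of probe sets that changed 2-fold were checked within each arm for a pig far from the others, 64 groups in all. In 4 of them a pig exceeded Dixon's critical value, and chance does so in about 1 in 20. In the shunt arm CIRBP fell by 1.84 in pig 1, against -1.39 to -1.15 in the other 5 pigs, and FAIM fell by 2.20 in pig 4, against -1.24 to -0.84 in the others. In the control arm PTX3 changed by 2.09 in pig 5, against 4.06 to 4.77 in the other 4 pigs, and TLR4 by 0.62 in pig 4, against 0.19 to 0.31 in the others.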

How the results depend on the processing

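With no replicate block for the pig the fit called 4865 probe sets, 3771 in the shunt arm, against 507 in the control arm. With the lowest 30% of probe sets left out, 7292 of the rest had intervals inside 1.2-fold. The fit to shunt pigs 1 to 4 alone called 2369 probe sets (965 higher, 1404 lower) with 1932 inside 1.2-fold, that to shunt pigs 5 and 6 alone 454 (246 higher, 208 lower) with 364 inside, and that to the control pigs alone 1790 (799 higher, 991 lower) with 6485 inside. Those fits hold fewer pigs. With each pig left out in turn the calls lay between 5825 and 7348 (2343 to 3028 higher, 3482 to 4320 lower), between 4214 and 5910 in the shunt arm, against 662 to 1940 in the control arm, and 11236 to 12698 probe sets stayed inside 1.2-fold. The control arm gave 662, 719 and 924 calls without control pigs 1, 2 and 3. The difference between the arms gave 0 calls in every such fit. Leaving out shunt pigs 2 and 4 was chosen after seeing the data. Of 5052 changes recomputed for 211 genes, 4699 kept their side of the threshold, 325 lost a call and 27 gained one. Those called in both fits kept their direction. Genes called in neither were checked only for a shift smaller than the spread between pigs, and some crossed 0. NPPA, for example, went from 0.04 to -0.50 without control pig 5. The 1 reversal of a called gene was USP9X, called lower, which stood at 0.0213 (adjusted p = 0.690 in limma) when each gene was the mean of its probe sets. The cause was not tested. Of 960 list medians 950 moved by less than the spread between pigs.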

Other observations

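Probe sets of the same gene did not always move together. In 48 of 380 genes with 2 or more called probe sets, at least 1 was called higher and 1 lower. The widest gap was in AMCF-II, a porcine neutrophil chemokine, where one probe set rose by 3.15 ± 0.47 (SE, n = 11 pigs) and another fell by 0.26 ± 0.07. In CTSC, the lysosomal protease cathepsin C, 3 probe sets rose by 1.02 to 1.26 in 11 of 11 pigs and the remaining one fell by 0.28 ± 0.06. In B2M, the light chain of class I molecules, one rose by 0.96 ± 0.12 and another fell by 0.25 ± 0.07. NSL1, a kinetochore protein, had one at 1.12 ± 0.24 and another at -0.55 ± 0.07, and FXR1, an RNA-binding protein, one at 0.23 ± 0.07 and another at -0.84 ± 0.12. The values of such genes depend on the probe set.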
